A study of Mus musculus with 8 samples.

Results

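A set of 95 hippocampal nuclei carried Lhx6 transcripts and little or no Sst, and is described here as Lhx6+ Sst-low nuclei. They made up 15.3% of 621 GABAergic nuclei and 0.825% of 11518 retained nuclei, and came as 28, 25, 29 and 13 nuclei from the libraries MF1, MF2, HF1 and HF2. The Lhx6+ Sst-low nuclei were chosen by measured values: at least 3 UMIs (unique molecular identifiers, counts of single RNA molecules) of Gad1 and Gad2 together, at least 1 of Lhx6, at most 2 of Sst and at most 1 of Slc17a7, the transporter of excitatory neurons. The other GABAergic nuclei met the same limits for Gad1, Gad2 and Slc17a7. They fell into 56 nuclei with Lhx6 and 3 or more Sst UMIs (Lhx6+ Sst-high nuclei) and 470 nuclei with no Lhx6 UMI (Lhx6-zero nuclei).

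Lhx6 encodes a LIM homeodomain factor that interneurons born in the medial ganglionic eminence switch on as they leave the cell cycle and keep into adulthood. It acts upstream of Sox6 and Satb1, and mice without it fail to form most Pvalb and Sst interneurons. In the hippocampus the lineage gives Pvalb basket and bistratified cells, axo-axonic cells that contact the axon initial segment, Sst cells of stratum oriens, and Ivy and neurogliaform cells that express Lamp5 and nitric oxide synthase. Interneurons of the caudal ganglionic eminence use Prox1, Nr2f2 and Adarb2 instead and include Vip cells and Cck basket cells with the cannabinoid receptor Cnr1.

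The nuclei came from the hippocampus of wild-type C57BL/6J male pups at postnatal day 21, profiled with a multiome assay that reads RNA and accessible chromatin (ATAC) of the same nucleus. Dams 8 weeks of age ate a diet with folic acid at 2 mg/kg (MF) or 20 mg/kg (HF), from 2 weeks before mating until the end of lactation. Each diet had 2 libraries. The paper calls the 2 libraries of a diet biological replicates. The number of pups in a library was not stated, so p-values measure the spread between these libraries, a part of which may be technical.

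Promoter sequence is shown for the gene that defines the nuclei, for the caudal lineage gene Adarb2 and for Npas3, which was called in accessible chromatin in the comparison below. Each line gives the 250 bases before a RefSeq transcription start (GRCm38.p6), 5′ to 3′ on the gene's strand, with matches to any of 5 searched motifs in capitals. The 3 genes were picked after their values were seen.
Lhx6, chr2:36105409-36105658, minus strand: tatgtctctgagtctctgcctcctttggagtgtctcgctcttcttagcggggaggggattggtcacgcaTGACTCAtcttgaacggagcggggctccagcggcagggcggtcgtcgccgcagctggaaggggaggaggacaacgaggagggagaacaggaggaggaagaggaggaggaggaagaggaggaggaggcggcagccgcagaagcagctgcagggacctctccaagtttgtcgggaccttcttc
Adarb2, chr13:8202616-8202865, plus strand: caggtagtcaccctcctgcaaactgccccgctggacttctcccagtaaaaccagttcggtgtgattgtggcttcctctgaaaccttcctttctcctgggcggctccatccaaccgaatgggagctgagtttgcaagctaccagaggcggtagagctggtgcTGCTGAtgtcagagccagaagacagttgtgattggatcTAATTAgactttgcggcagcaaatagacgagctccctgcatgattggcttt
Npas3, chr12:53248182-53248431, plus strand: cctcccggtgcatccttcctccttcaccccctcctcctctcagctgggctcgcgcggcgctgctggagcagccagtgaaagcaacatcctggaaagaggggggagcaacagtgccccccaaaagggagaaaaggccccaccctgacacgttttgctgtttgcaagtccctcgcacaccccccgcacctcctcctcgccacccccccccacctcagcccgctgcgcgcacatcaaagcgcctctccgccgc
The motifs, searched on both strands, were TAATTA, the core bound by LIM homeodomain and Dlx factors, CAAGTG for NKX factors, ACAATG for SOX factors, TGCTGA for MAF factors and TGACTCA for AP-1. Among 32851 promoters of this length, 4.84% held TAATTA, 11.6% CAAGTG, 10.7% ACAATG, 16.1% TGCTGA and 4.46% TGACTCA. The Lhx6 window held 1 match to TGACTCA, the Adarb2 window 1 each to TAATTA and TGCTGA, and the Npas3 window none of the 5. Lhx6 has 3 RefSeq starts, and the most upstream is shown. Of 59 genes higher in RNA in these nuclei than in the other GABAergic nuclei, 43 had a promoter in the table, 58 promoters in all. TAATTA was in 5.17% of them, CAAGTG in 13.8%, ACAATG in 3.45%, TGCTGA in 13.8% and TGACTCA in 5.17%. Of 138 lower genes, 107 had one, 141 in all, with 2.84% holding TAATTA, 9.93% CAAGTG, 4.96% ACAATG, 8.51% TGCTGA and 2.84% TGACTCA.

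Depth was somewhat higher in the Lhx6+ Sst-low than in the Lhx6-zero nuclei of every library. Their median UMIs per nucleus were 10597.5, 12883, 12306 and 12218 in MF1, MF2, HF1 and HF2, against 9415.5, 10709, 11203.5 and 10496. Over all libraries the medians were 12084 in Lhx6+ Sst-low, 12394 in Lhx6+ Sst-high and 10340.5 in Lhx6-zero nuclei. The Lhx6+ Sst-low nuclei of a library summed to between 182578 and 415569 UMIs. Of the retained nuclei of any pair of libraries, 8 to 20 shared a barcode. Doublet scores over 0.05 were found in 14.4 to 16.4% of retained nuclei per library and in 4, 5, 5 and 1 of the Lhx6+ Sst-low nuclei of MF1, MF2, HF1 and HF2. Nuclei with 20 or more UMIs of 15 glial markers numbered 3, 5, 7 and 1 in the same order. Haemoglobin RNA, which nuclei do not make, was highest in MF1.

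Most of these nuclei sat close to the limits of the rule. Lhx6 gave a single UMI in 72 of the 95, 2 in 11, 3 in 9, 4 in 1 and 5 in 2. No Sst UMI was found in 68, 1 in 19 and 2 in 8, whereas Lhx6+ Sst-high nuclei had a median of 20.5 Sst UMIs and just 2 nuclei had exactly 3 with the rest of the rule met. Gad1 and Gad2 together exceeded 6 UMIs in 77 nuclei, and 6 nuclei lay just under the limit with 2. Slc17a7 gave 1 UMI in 21 nuclei, and 11 nuclei lay just over the limit with 2. On the far side of the Lhx6 limit lay 383 GABAergic nuclei without an Lhx6 UMI and with at most 2 of Sst, so a missed molecule of a factor seen mostly as 1 UMI would move a nucleus out of the set. Of the 470 Lhx6-zero nuclei, 87 carried 3 or more Sst UMIs.

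Marker RNA was read next, as CPM, the share of a gene in the UMIs summed per library and class on the usual counts-per-megacount scale. The summed level of 4 markers of the medial lineage (Lhx6, which the rule used, Sox6, Satb1 and Nxph1) was 3641 to 4617 CPM in Lhx6+ Sst-low, 3708 to 4814 in Lhx6+ Sst-high and 1936 to 2737 in Lhx6-zero nuclei. That of 4 caudal markers (Adarb2, Prox1, Nr2f2 and Npas1) was 566 to 1451 CPM in Lhx6+ Sst-low nuclei, 150 to 276 in Lhx6+ Sst-high nuclei and 5266 to 6804 in Lhx6-zero nuclei. Medial marker ranges of the 2 classes with Lhx6 overlapped. Their caudal ranges did not with all nuclei, but 1 nucleus held 92.2% of the Adarb2 UMIs of HF2, the library with the highest caudal sum, and without it Adarb2 was at 117 CPM there. Summed excitatory markers reached 148 to 270 CPM, against 276 to 323 in the other GABAergic nuclei. Pvalb, the third label marker beside Gad2 and Lhx6, was found in 37 of the 95 nuclei (38.9%), against 10.6% of excitatory nuclei, which should lack it and had a median of 13657.5 UMIs. After thinning each nucleus to 3000 UMIs the shares were 15.8 and 2.58%. Lamp5 was found in 35 nuclei (36.8%), against 11.1% of excitatory nuclei, and in 15.8 and 3.01% after thinning. A nucleus without a Pvalb UMI may still express it at these depths.

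What set these nuclei apart from the other GABAergic nuclei in RNA was examined with edgeR's quasi-likelihood test on the sums, with library as a term, calling genes at a Benjamini-Hochberg adjusted p under 0.05 over all genes tested and a difference of at least 2-fold. Of 8775 genes tested, 60 were higher (0.684%) and 139 lower (1.58%), the rule genes Lhx6 (higher) and Sst (lower) among them. The rule sorted nuclei on Lhx6 and Sst, so genes that go with either would differ by that choice, and the counts describe the set. Against Lhx6-zero nuclei 54 of 8505 genes were higher (0.635%) and 140 lower (1.65%), including the same 2 rule genes. Against Lhx6+ Sst-high nuclei 117 of 4536 were higher (2.58%) and 83 lower (1.83%), Gad1 and Sst included.

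**Figure D1:**
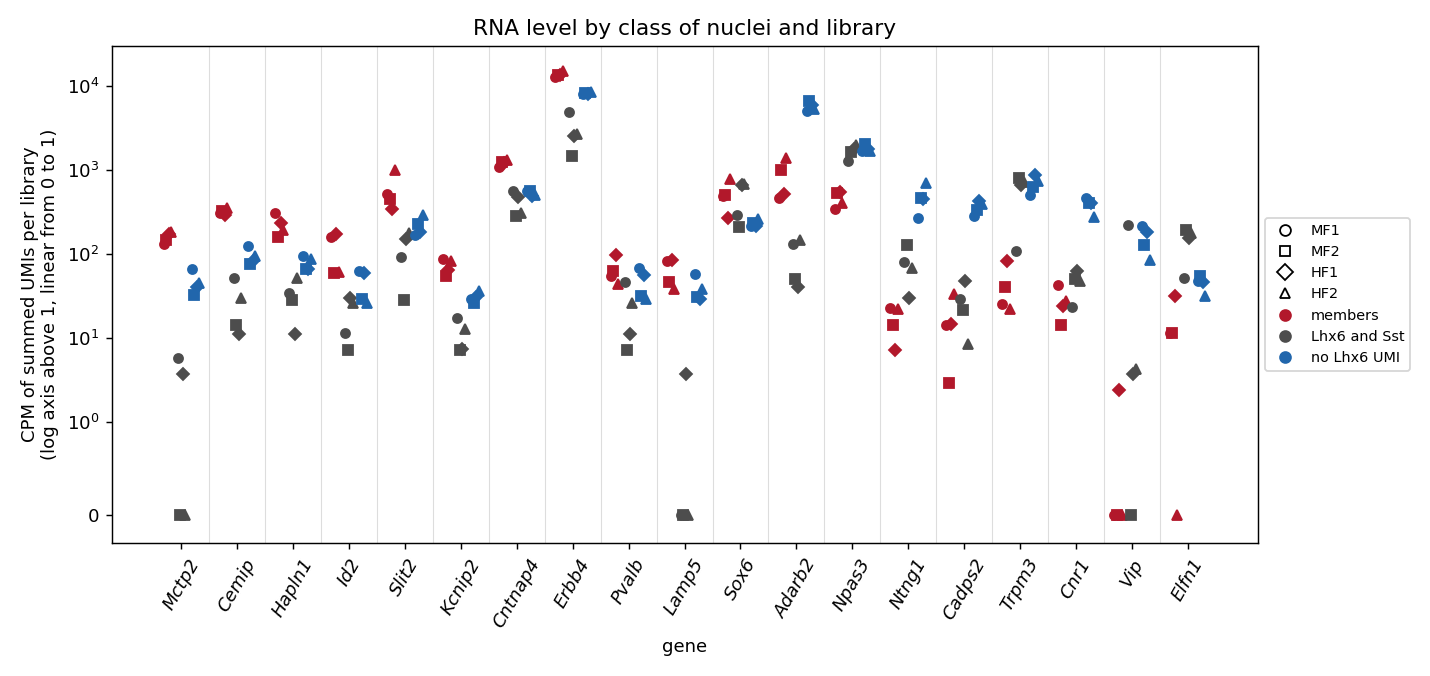
RNA level of genes named in the text, in CPM of summed UMIs (log axis above 1) for 4 libraries in the Lhx6+ Sst-low nuclei (members), the Lhx6+ Sst-high nuclei (Lhx6 and Sst) and the Lhx6-zero nuclei (no Lhx6 UMI), 1 point per library. Cemip lay at 289 to 356 CPM in the Lhx6+ Sst-low nuclei and at most 122 in the other classes, while Trpm3 lay at 21.9 to 81.8 and at least 109 in the others.

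Of 23 basket and bistratified genes tested in a list of 26, 5 rose against the other GABAergic nuclei (Cemip, Slit2, Syt2, Kcnip2 and Cntnap4), none fell and 18 were not called, with a median log2 difference of 0.64 against −0.01 over all genes. Cemip, which encodes a hyaluronan-binding protein, was at 308, 325, 289 and 356 CPM in MF1, MF2, HF1 and HF2, against 115, 69.0, 71.3 and 85.2 in the other GABAergic nuclei, and the ranges did not overlap. Its log2 difference was 1.95 ± 0.15 (SE, n = 4 libraries, edgeR adjusted p = 5.7e-07). Cemip was not confined to these nuclei: 37.2% of excitatory nuclei and 63.2% of Lhx6+ Sst-low nuclei had a UMI, or 13.9 and 38.9% after thinning. Slit2, an axon guidance ligand, was at 523, 454, 339 and 1008 CPM against 159, 204, 177 and 273 (1.47 ± 0.16, edgeR adjusted p = 3.4e-05). In HF1 1 nucleus held 59 of 141 Slit2 UMIs, and it had 86 UMIs of glial markers and a doublet score of 0.121. Without it Slit2 was at 207 CPM in HF1, under the 273 of HF2 in the others. In HF2 1 nucleus held 74 of 184 UMIs, and without it Slit2 was at 684 CPM. Syt2, the calcium sensor of fast release at basket cell terminals, was at 79.2, 45.6, 31.3 and 54.8 CPM against 20.9, 10.9, 18.4 and 16.1 (1.65 ± 0.28, edgeR adjusted p = 0.0021). Kcnip2, a subunit of A-type potassium channels, and Cntnap4, a contactin-associated protein of interneuron synapses, differed by 1.41 ± 0.21 and 1.27 ± 0.12 on the log2 scale (n = 4 libraries). For these 5 genes the call held without each library in turn.

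Erbb4, the neuregulin receptor of these interneurons, measured 12831, 13643, 13374 and 15035 CPM, against 7713, 7440, 7062 and 7751 in the other GABAergic nuclei, so every library lay apart. The log2 difference of 0.91 ± 0.11 had an edgeR adjusted p of 8.8e-05 but was under 2-fold and was not called. Pvalb itself was at 53.7, 62.8, 96.3 and 43.8 CPM against 65.8, 28.6, 48.7 and 28.8, with overlapping ranges, a log2 difference of 0.64 ± 0.24 and an edgeR adjusted p of 0.20. Kcnc1 and Kcnc2, the fast potassium channels of Pvalb cells, differed by 0.71 ± 0.16 and 0.64 ± 0.14 (edgeR adjusted p = 0.014 and 0.0099), both under 2-fold. Among genes of axo-axonic cells, 10 of 13 were tested. Trps1, a GATA-type repressor, was higher (1.10 ± 0.14) and Sorcs3, a sorting receptor, lower, with a list median of 0.88. Without MF2 Trps1 fell just under 2-fold, at 0.96.

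Ivy and neurogliaform genes moved both ways. All 18 were tested, of which 3 were higher (Hapln1, Id2 and Cacna2d1) and 3 lower (Kit, Npy and Ndnf), with a median of 0.36. Hapln1, a link protein of the extracellular matrix, was at 303, 157, 233 and 192 CPM against 86.7, 61.4, 57.6 and 82.9 (1.67 ± 0.16, edgeR adjusted p = 7.3e-06). Id2, an inhibitor of basic helix-loop-helix factors, was at 158, 59.9, 171 and 60.2 CPM against 57.6, 26.1, 54.6 and 25.9, the lowest value here lying just above the highest of the others. Cacna2d1, a calcium channel subunit, was at 1728, 830, 1492 and 822 CPM against 576, 443, 443 and 642 (1.21 ± 0.18). In HF2 the nucleus with most UMIs of the gene held 22 of 35 for Hapln1, 6 of 11 for Id2 and 78 of 150 for Cacna2d1. Without that nucleus they were at 76.2, 29.3 and 422 CPM there, each under the highest library of the others. Lamp5 was at 82.0, 45.6, 84.2 and 38.3 CPM against 51.9, 26.9, 24.9 and 32.8, a difference of 0.98 ± 0.25 with an edgeR adjusted p of 0.030, just short of 2-fold. Ndnf, a marker of caudal-type neurogliaform cells, was at 0, 2.85, 45.7 and 16.4 CPM against 57.0, 85.9, 73.6 and 81.2. Its call was lost without MF2 (log2 −1.63, edgeR adjusted p = 0.078), as was that of Npy without MF1 or MF2.

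Of 13 transcription factors of the medial lineage tested in 18, Mef2c and Tox2 were higher, the median being 0.47, and both sat at the 2-fold limit: without MF1 Tox2 was at 0.95, and Mef2c was at 0.91 without MF2, 0.95 without HF2 and just under 2-fold without HF1, none of them called. Sox6, the factor downstream of Lhx6, was at 484, 499, 265 and 772 CPM against 214, 234, 215 and 262 in Lhx6-zero nuclei (1.07 ± 0.17, edgeR adjusted p = 0.0015), a call lost without HF2 (0.90). Against Lhx6+ Sst-high nuclei Sox6 differed by 0.18 ± 0.32 and Nxph1, a neurexin ligand of this lineage, by 0.08 ± 0.17 (edgeR adjusted p = 0.86 and 0.89). Satb1 was at 168 to 334 CPM in Lhx6+ Sst-low and 271 to 461 in Lhx6+ Sst-high nuclei, with an edgeR adjusted p of 0.11.

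Of 14 caudal lineage genes tested in 20, 7 fell against the other GABAergic nuclei (Cnr1, Vip, Adarb2, Cxcl14, Npas1, Prox1 and Ndnf) and 1 rose (Id2), with a median of −1.04. Vip gave a single UMI in the 95 nuclei, in HF1, and 854 UMIs in the other GABAergic nuclei. That is a ratio of 180 over all libraries, with an exact 95% interval of 32.2 to 7105 for counting error alone. Cnr1, the presynaptic cannabinoid receptor, was at 42.4, 14.3, 24.1 and 27.4 CPM against 414, 357, 351 and 246 (−3.68 ± 0.21, edgeR adjusted p = 1.6e-08). Npas1 and Cxcl14, a factor and a chemokine of caudal interneurons, differed by −2.99 ± 0.47 and −2.30 ± 0.35. Prox1 differed by −1.07 ± 0.22, and by −0.84 without MF2, where it was not called. Against Lhx6+ Sst-high nuclei 8 genes of this list were tested. None was lower and 3 were higher (Adarb2, Id2 and Egfr), with a median of 0.17.

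Adarb2, an editase-like RNA-binding protein, held a middle place. It was at 467, 998, 515 and 1397 CPM in Lhx6+ Sst-low nuclei, at 5048, 6635, 5954 and 5266 in Lhx6-zero nuclei and at 132, 49.8, 40.5 and 145 in Lhx6+ Sst-high nuclei, and no 2 of these ranges overlapped. The log2 difference was −2.87 ± 0.21 from Lhx6-zero and 3.18 ± 0.30 from Lhx6+ Sst-high nuclei (edgeR adjusted p = 1.4e-06 and 1.1e-05). The nucleus with most Adarb2 held 59.4, 22.9, 27.6 and 92.2% of its UMIs in MF1, MF2, HF1 and HF2. Without that nucleus Adarb2 was at 196, 794, 383 and 117 CPM, so HF2 then lay within the range of the Lhx6+ Sst-high nuclei. With a limit of 3 UMIs, Adarb2 was found in 27 of the 95 nuclei, and 20 of these also had Lamp5 while 5 had Pvalb. Sox6 and 3 or more Adarb2 UMIs met in 5 nuclei, with 51 having Sox6 alone and 22 Adarb2 alone.

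Among the 12 called genes with the largest fold in each direction and a mean of at least 20 CPM, those outside the lists were Mctp2, Mitf, Zbtb7c, Hcrtr2, Nek7 and Adgra3 (higher) and Ntng1, Cadps2, Tafa1, Trpm3, Sdk2, Dnah9, Bmper and Dpyd (lower). Adgra3 differed by 1.55 on the log2 scale and was not called without HF2 (1.23, edgeR adjusted p = 0.063). Mitf, a basic helix-loop-helix factor, was at 116, 328, 200 and 345 CPM against 75.3, 65.7, 59.4 and 90.4 (1.73 ± 0.20, edgeR adjusted p = 7.2e-05). Mctp2, a calcium-binding membrane protein, was at 130, 145, 173 and 181 CPM against 58.9, 28.6, 34.4 and 38.6. Hcrtr2, the orexin receptor type 2, was at 170, 117, 120 and 181 CPM against 72.1, 27.8, 44.5 and 57.6 (1.58 ± 0.17, edgeR adjusted p = 3.6e-05). Mctp2, Hcrtr2 and Mitf were each higher in every library of these nuclei than in any library of the others. In HF2, however, 1 nucleus held 21 of 33 Hcrtr2 UMIs. Without it Hcrtr2 was at 70.9 CPM there, under the 72.1 of MF1 in the others. Without the highest nucleus of HF2, Mctp2 was at 122 and Mitf at 299 CPM. Ntng1, a netrin relative anchored to axons, was at 22.6, 14.3, 7.22 and 21.9 CPM against 246, 423, 381 and 612 (−4.59 ± 0.25). Trpm3, a cation channel, was at 25.5, 39.9, 81.8 and 21.9 CPM against 463, 645, 845 and 739 (−3.89 ± 0.20), and Cadps2, a priming factor of dense-core vesicles, at 2.85 to 32.9 against 255 to 367. Npas3, a basic helix-loop-helix factor with a PAS domain, was at 339, 536, 551 and 400 CPM against 1631, 2010, 1782 and 1740 (−1.95 ± 0.13, edgeR adjusted p = 1.3e-07) and was at 1284 to 2006 CPM in Lhx6+ Sst-high nuclei.

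The comparison with Lhx6+ Sst-high nuclei stayed within the Lhx6 nuclei. Of 22 basket and bistratified genes tested, 7 were higher (Cemip, Erbb4, Slit2, Cntnap4, Kcnip2, Kcnab1 and Btbd11) and Eya1 lower, with a median of 0.76 against −0.02 over all genes. Of 6 axo-axonic genes, 4 were higher (Fgf13, Trps1, Dock4 and Inpp4b), and of 12 Ivy and neurogliaform genes 5 (Cacna2d1, Hapln1, Id2, Unc5c and Sema5a), Npy being lower. Erbb4 reached 1452 to 4917 CPM in Lhx6+ Sst-high nuclei, a log2 difference of 2.39 ± 0.24 (edgeR adjusted p = 2.2e-05). Fgf13, a regulator of sodium channels, was at 2102, 1606, 1990 and 1572 CPM against 236, 92.6, 272 and 294 (3.07 ± 0.24). Mctp2 gave 2 UMIs in all Lhx6+ Sst-high nuclei against 202 here, a ratio of 63.6 (exact 95% interval 17.4 to 529, counting error alone). Pde11a, a phosphodiesterase, was at 303, 217, 226 and 351 CPM against 0, 7.12, 3.68 and 12.8. Lost without at least 1 library were Eya1 (without HF1), Inpp4b (MF2 or HF1), Btbd11 (MF2 or HF2) and Sema5a (MF1, HF1 or HF2).

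Of 11 genes tested in a list of Sst cell genes without Sst itself, 5 fell against Lhx6+ Sst-high nuclei, among them Npy, Elfn1, Crhbp and Grin3a, none rose and 6 were not called, with a median of −0.95. Elfn1, the postsynaptic organizer of facilitating inputs onto Sst cells, was at 11.3, 11.4, 31.3 and 0 CPM against 51.8, 192, 155 and 175 (−3.12 ± 0.42). Grin3a was called with all libraries but not without MF2, HF1 or HF2 (−1.32, −0.97 and −1.09). Tafa1, a secreted chemokine-like protein, and Trpm3 were lower here than in Lhx6+ Sst-high and than in Lhx6-zero nuclei, with log2 differences of −3.87 ± 0.40 and −3.56 ± 0.33 from the former. These comparisons share the Lhx6+ Sst-low sums. Against Lhx6-zero nuclei the same 5 of 23 basket and bistratified genes were called higher, Syt2 not without MF1 (1.30, edgeR adjusted p = 0.054), and 7 of 14 caudal genes lower, Prox1 not without MF2 (−0.95, edgeR adjusted p = 0.031, under 2-fold).

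Most receptor, channel and adhesion genes of the lists were not called against the other GABAergic nuclei. Over all 8775 genes tested, 0.684% were higher and 1.58% lower. The shares of lower genes in the receptor and channel lists were above the latter, without matching for RNA level. Of 17 glutamate receptor genes tested, 3 were lower, Grm7 and Grm8 among them, and none higher, and the median was −0.13. Grm8 was at 102, 145, 69.8 and 43.8 CPM against 256, 281, 299 and 307, with no overlap. Of 25 voltage-gated channel genes, Kcnq5, Kcnd3 and Cacna1e were lower (median −0.01). Of 30 adhesion genes, Cntnap4, Cdh12 and Nxph2 were higher and Dscam lower (median 0.15). Cdh12, a type II cadherin, was at 512, 702, 474 and 772 CPM against 238, 226, 276 and 214 (1.37 ± 0.16). Of 18 modulator receptor and growth factor genes, Igf1, Adra1b and Htr2c were lower (median 0.12), Igf1 at 39.6, 22.8, 28.9 and 5.48 CPM against 136, 136, 138 and 121. Of 6 perineuronal net genes, Hapln1 and Vcan were higher and Ptprz1 lower. Vcan is also a marker of oligodendrocyte precursors, and 3 markers of those cells (Vcan, Pdgfra and Cspg4) summed to 98.6 to 232 CPM here and 57.6 to 117 in the other GABAergic nuclei. Vcan gave 79, 46, 52 and 18 UMIs of this sum in MF1, MF2, HF1 and HF2, Pdgfra 2, 10, 0 and 0, and Cspg4 1, 3, 0 and 0. Acan, the core proteoglycan of mature nets, had a UMI in 3 of the 95 nuclei (3.16%), against 2.95% of excitatory nuclei.

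GABA synthesis and transport genes (13 tested), folate and one-carbon genes (22), immediate early genes (5) and ribosomal protein genes (79) gave no call in either direction, with medians of −0.05, −0.04, −0.70 and −0.12. Of 9 markers of free RNA, Hba-a1, Hba-a2 and Hbb-bt were lower. Hba-a1 was at 226 CPM in MF1 and 21.7 to 32.9 in the other libraries, against 620 and 35.7 to 57.2 in the other GABAergic nuclei, and without MF1 the difference was −0.73 with an edgeR adjusted p of 0.31. Hba-a2 and Hbb-bt were not called without MF1 either (−0.72 and −0.88, edgeR adjusted p = 0.48 and 0.45). Against the other GABAergic nuclei, calls also lost without 1 library were Kcnq5 (without MF2), Kcnd3 (MF2 or HF2), Cacna1e (HF1), Grm7 (HF1 or HF2), Nxph2 (MF2, HF1 or HF2), Adra1b (MF2), Htr2c (MF2 or HF1) and Vcan (MF1). Oligodendrocyte markers summed to 156, 471, 1242 and 361 CPM here and to 489 to 1216 in the other GABAergic nuclei. Without the nuclei of 20 or more glial marker UMIs, a limit chosen after the data were seen, 222 genes were called against the other GABAergic nuclei, 167 of them among the 199.

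Pvalb and Lamp5 UMIs mostly lay in different nuclei of the set. A UMI of Pvalb without Lamp5 was found in 32 nuclei (6, 9, 14 and 3 by library), of Lamp5 without Pvalb in 30 (9, 9, 9 and 3), of both in 5 and of neither in 28. HF2 held 3 nuclei of each kind, too few for the planned test between them, which was not run, so the values below are a description. Median UMIs per nucleus were 12835 to 18791 in the Pvalb nuclei and 9286 to 11990 in the Lamp5 nuclei. Among all 3798 genes with at least 40 UMIs in both kinds together, the 4 library values did not overlap in 14.1%. Of these, 321 were higher and 215 lower in the Pvalb nuclei. Among 152 such genes of the lists the values did not overlap in 44.7%, 37 higher and 31 lower in the Pvalb nuclei. Pvalb and Lamp5 chose the kinds, so they cannot overlap, and both are counted in these shares. The genes were not matched for RNA level. A gene could pass the limit of 40 UMIs through only the kind in which it was high.

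**Figure D2:**
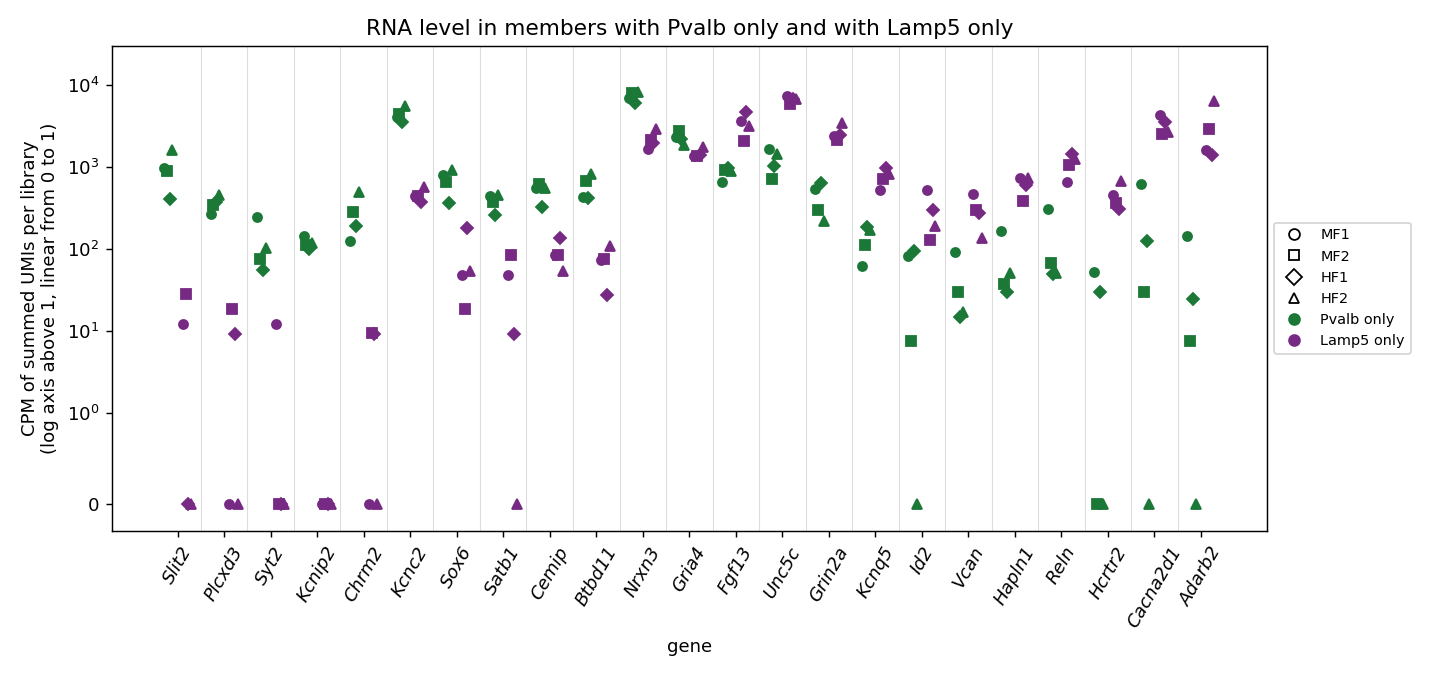
RNA level of 23 genes in CPM of summed UMIs (log axis above 1) in Lhx6+ Sst-low nuclei with Pvalb and no Lamp5 UMI (green) and with Lamp5 and no Pvalb UMI (purple), 1 point per library. Kcnc2 ran from 3516 to 5590 CPM in the Pvalb nuclei and from 369 to 567 in the Lamp5 nuclei, and Cacna2d1 from 0 to 616 and from 2527 to 4278.

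Of 20 basket and bistratified genes with at least 40 UMIs, Pvalb left out, 12 were higher in every library of the Pvalb nuclei than in any of the Lamp5 nuclei and 8 overlapped. Kcnc2, a potassium channel of fast-spiking cells, was at 4118, 4379, 3516 and 5590 CPM in the Pvalb nuclei and at 436, 444, 369 and 567 in the Lamp5 nuclei. Kcnip2 gave 56 UMIs in the Pvalb nuclei and 0 in the Lamp5 nuclei, and Syt2 51 against 1. Both passed the limit of 40 UMIs only through the Pvalb nuclei, as did Chrm2 and Oprd1 below. Other genes named here and in the next paragraph may have passed through 1 kind alone, and the counts by list include such genes. Slit2 was at 976, 882, 400 and 1626 CPM against 12.1, 27.8, 0 and 0. Of 9 transcription factors of the medial lineage with at least 40 UMIs, 4 were higher in the Pvalb nuclei (Sox6, Satb1, Mef2c and Ppargc1a), 3 lower (Tox2, Bcl11b and Dlx6os1) and 2 overlapped, with Sox6 at 791, 659, 365 and 915 CPM against 48.5, 18.5, 180 and 54.0. Also higher in the Pvalb nuclei were the muscarinic receptor gene Chrm2 (117 UMIs against 2), the opioid receptor gene Oprd1 (49 against 0) and the AMPA receptor gene Gria3, at 1695, 1430, 879 and 1033 CPM against 121, 204, 80.9 and 135.

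Of 14 Ivy and neurogliaform genes with at least 40 UMIs, Lamp5 left out, 7 were higher in every library of the Lamp5 nuclei, 1 was lower and 6 overlapped. Cacna2d1 was at 4278, 2527, 3552 and 2647 CPM in the Lamp5 nuclei and at 616, 29.6, 123 and 0 in the Pvalb nuclei. Hapln1 was at 739, 380, 602 and 729 CPM against 164, 37.0, 29.6 and 50.8, and 31 of the 35 nuclei with Lamp5 had a Hapln1 UMI. Reln, the secreted glycoprotein of neurogliaform cells, was at 654, 1055, 1421 and 1242 CPM against 308, 66.7, 49.4 and 50.8. Adarb2 was at 1624, 2925, 1412 and 6374 CPM against 144, 7.41, 24.7 and 0. HF2 had 3 Lamp5 nuclei, and 1 of them held 235 of the 255 Adarb2 UMIs of the whole set there. In HF2 the nucleus with most Hapln1 held 22 of 35 UMIs of the set, and that with most Cacna2d1 78 of 150. Values of the Lamp5 nuclei without such single nuclei were not computed. Hcrtr2, the netrin receptor gene Unc5c and the NMDA receptor gene Grin2a were higher in the Lamp5 nuclei as well, Grin2a at 2363, 2138, 2437 and 3457 CPM against 534, 296, 632 and 220. Erbb4 and Nxph1 had overlapping ranges in both kinds. Cemip was at 555, 622, 321 and 559 CPM in the Pvalb nuclei against 84.8, 83.3, 135 and 54.0 in the Lamp5 nuclei, although 17 of the 35 nuclei with Lamp5 had a Cemip UMI, and 17 of the 37 with Pvalb had a Hapln1 UMI.

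Accessibility was read in the same nuclei, which had been retained on their total ATAC counts but not on any region. ATAC counts, the cuts of the transposase in open chromatin, were summed over regions with a peak in all 4 libraries. Over single regions, none of 40850 was called between Lhx6+ Sst-low and other GABAergic nuclei (0.0%), with 2448 at an unadjusted p under 0.05 and none called by DESeq2 either. On simulated counts this region test recovered 10.9% of 2-fold and 54.6% of 4-fold changes at an adjusted p under 0.05. The simulation set no fold minimum, so the calls would find at most these shares. Summed per gene, from 2 kb upstream to the gene's end, 2 of 18898 genes were called at an edgeR adjusted p under 0.05 (0.0106%), both lower. Npas3 was at 123, 165, 106 and 176 ATAC CPM against 266, 273, 253 and 244, with no overlap, over 56 regions (log2 −0.90 ± 0.13, edgeR adjusted p = 0.00012). Nckap5 was at 95.3, 125, 113 and 57.6 against 165, 170, 195 and 203 (−0.85 ± 0.15, edgeR adjusted p = 0.0090). The call of Npas3 was lost without MF1, MF2 or HF1 (−0.83, −0.97 and −0.79, with edgeR adjusted p of 0.059, 0.11 and 0.059), and that of Nckap5 without any 1 library. In RNA Nckap5 differed by −0.86 ± 0.31 (edgeR adjusted p = 0.17).

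**Figure D3:**
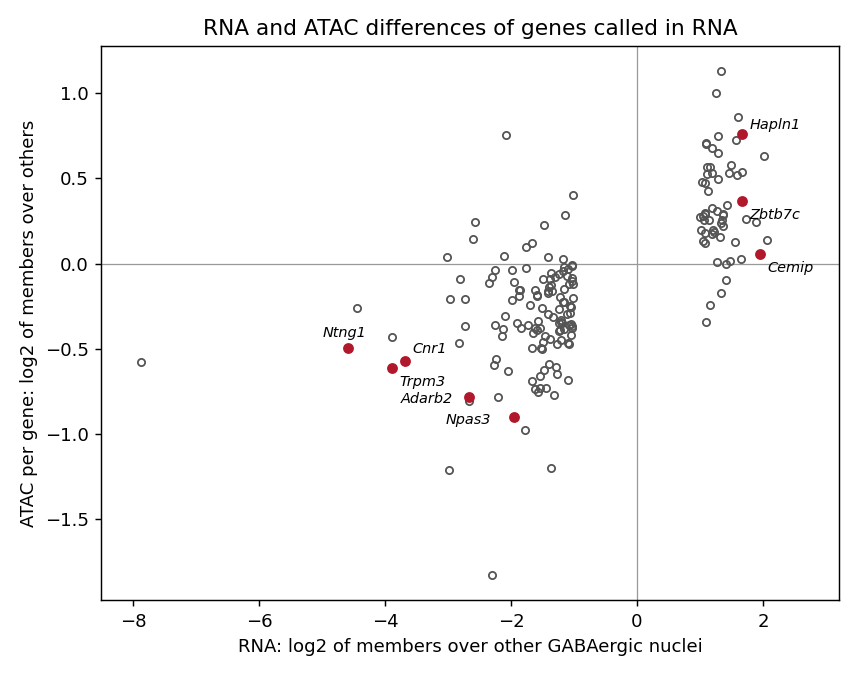
Log2 difference in RNA (horizontal) and in ATAC counts per gene (vertical) between Lhx6+ Sst-low and other GABAergic nuclei, 1 point per gene called in RNA, rule genes left out. The 59 genes higher in RNA had a median ATAC difference of 0.29 and the 127 lower ones with an ATAC value −0.31, while all genes had −0.01, and Npas3 was the called ATAC gene among them. The point farthest left is Syt6, which gave no UMI in the Lhx6+ Sst-low nuclei, so that its fitted RNA value depends on the prior count, and Vip, which has no ATAC value, is not drawn.

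The genes called in RNA were then read in ATAC. The 59 genes higher in RNA, Lhx6 left out, had a median ATAC log2 difference of 0.29 (quartiles 0.18 and 0.54), and the 127 lower ones with an ATAC value −0.31 (quartiles −0.47 and −0.12), against −0.01 for all genes. Both readouts came from the same nuclei, and the genes were picked by their RNA. Of these genes Npas3 alone was called in ATAC. At Lhx6, where RNA but not chromatin chose the nuclei, the 2 regions together were at 37.4, 50.9, 42.3 and 74.5 ATAC CPM against 20.6, 25.1, 34.7 and 14.6, without overlap (1.08 ± 0.29, edgeR adjusted p = 0.18). The region inside the gene, chr2:36091017-36091958, was at 24.3, 23.4, 26.9 and 20.3 CPM against 9.15, 7.76, 17.7 and 6.20 (log2 1.15, unadjusted p = 0.0095, adjusted p = 0.78, edgeR). The region over the start, chr2:36104734-36105692, which covers the Lhx6 promoter printed above, was at 13.1, 27.5, 15.4 and 54.2 CPM against 11.4, 17.4, 17.0 and 8.37 and overlapped. Over the Adarb2 promoter (chr13:8202415-8203288) the values were 9.34, 6.88, 15.4 and 16.9 CPM against 15.3, 14.0, 22.4 and 17.7, and over the Npas3 promoter (chr12:53247898-53248810) 18.7, 13.8, 11.5 and 20.3 against 30.1, 22.2, 23.5 and 19.2. Neither region was called, with edgeR adjusted p of 0.88 and 0.85.

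Whether maternal folic acid went with fewer or more of these nuclei was asked by library. They were 16.1, 20.0, 17.5 and 8.33% of GABAergic nuclei in MF1, MF2, HF1 and HF2, with 95% Wilson intervals of 11.4 to 22.3, 13.9 to 27.9, 12.4 to 24.0 and 4.93 to 13.7%, which cover counting error only. The mean was 18.05% ± 2.76 (SD, n = 2) in MF and 12.9% ± 6.46 in HF, a difference of −5.14 percentage points (exact two-sided permutation p = 0.667). Of all retained nuclei they were 1.04% ± 0.103 in MF and 0.642% ± 0.273 in HF (exact permutation p = 0.333, the smallest that 2 against 2 libraries can give). Without HF1 the difference among GABAergic nuclei was −9.71 percentage points, and without HF2 −0.576. Among retained nuclei the difference was −0.397 percentage points with all libraries and −0.590 to −0.204 with 1 library left out. Thinned to 3000 UMIs per nucleus, which kept 2252, 1763, 2512 and 2168 retained nuclei, the set came to 4 of 87, 3 of 48, 7 of 69 and 7 of 58 GABAergic nuclei. The means were then 5.42% in MF and 11.1% in HF, and with at least 2 Lhx6 UMIs 3.32 and 3.95%. HF stayed lower with Sst at 0 (a difference of −4.08 percentage points), with at least 6 Gad1 and Gad2 UMIs (−7.26), without the limits on ATAC counts (−4.69) and without nuclei over the doublet score (−3.04), so the direction depended on the setting.

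**Figure D4:**
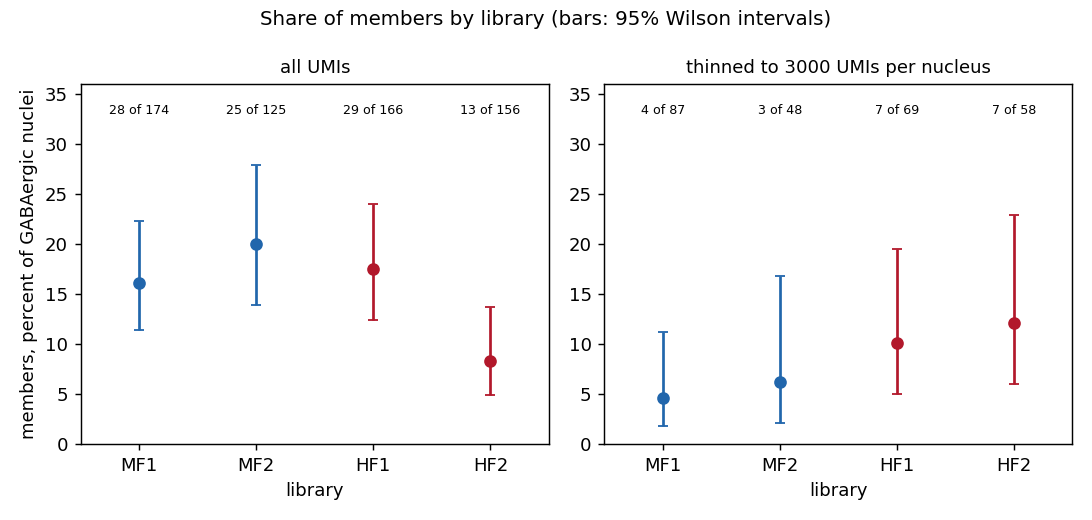
Lhx6+ Sst-low nuclei as a percent of GABAergic nuclei in each library, with 95% Wilson intervals, from all UMIs (left) and after thinning each nucleus to 3000 UMIs (right), MF in blue and HF in red. The left panel runs from 8.33% in HF2 to 20.0% in MF2, and the right panel from 4.60% in MF1 to 12.1% in HF2.

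Within the Lhx6+ Sst-low nuclei, HF against MF gave 2 called genes among 5826 (0.0343%), at an edgeR adjusted p under 0.05 and at least 1.2-fold, with 140 at an unadjusted p under 0.05. Bcas1, a gene of oligodendrocytes that are starting to myelinate, was at 11.3, 8.56, 113 and 137 CPM in MF1, MF2, HF1 and HF2 (log2 3.62 ± 0.49, edgeR adjusted p = 0.0098). Schip1, which encodes a protein of the axon initial segment and nodes, was at 744, 1015, 219 and 241 CPM (−1.91 ± 0.31, edgeR adjusted p = 0.043). Bcas1 gave 4 UMIs in MF1 and 3 in MF2, so the size of its difference depends on the prior count. Of 47 Bcas1 UMIs in HF1, 38 lay in 1 nucleus, which also had 132 UMIs of glial markers, and all 25 of HF2 lay in 1 nucleus with 95. Both nuclei had doublet scores over 0.05, at 0.109 and 0.113. Oligodendrocyte markers summed to 156, 471, 1242 and 361 CPM in these nuclei. A single nucleus held 152 of 263 Schip1 UMIs in MF1 and another 173 of 356 in MF2, and without the highest nucleus of each library Schip1 was at 345, 561, 166 and 171 CPM. The Schip1 locus also gives a transcript joined to Iqcj, and reads of the 2 cannot be told apart here.

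**Figure D5:**
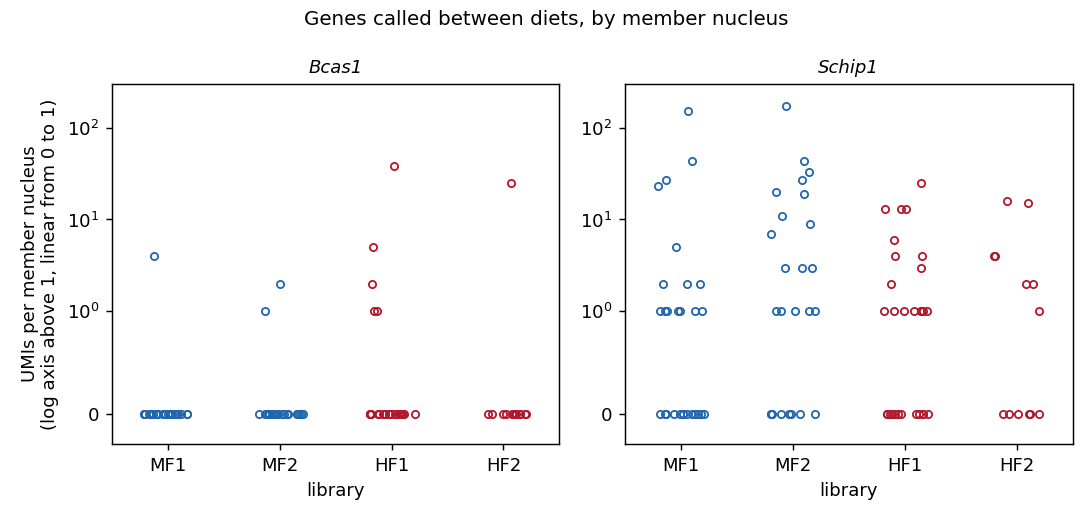
UMIs of Bcas1 and Schip1 in each Lhx6+ Sst-low nucleus (log axis above 1), by library, MF in blue and HF in red. Bcas1 was at 0 in most nuclei and at 38 and 25 UMIs in 1 nucleus each of HF1 and HF2, and Schip1 reached 152 and 173 UMIs in 1 nucleus each of MF1 and MF2.

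Bcas1 had too few UMIs to be tested without the nuclei over the doublet score, without those of 20 or more glial marker UMIs (a limit set after these values were seen), with Sst at 0 or with at least 2 Lhx6 UMIs. Schip1 was not called in these settings, at −1.80, −1.83, −1.12 and −0.88 in that order, with edgeR adjusted p of 0.20 and 0.64 in the first 2. Bcas1 was not called without MF1 (3.78, edgeR adjusted p = 0.36), nor Schip1 without MF1 or MF2 (−2.15 and −1.59, edgeR adjusted p = 0.37 and 0.29). Schip1 RNA was also unequal within the set, at 1623, 622, 400 and 271 CPM in Pvalb nuclei and 48.5, 241, 71.9 and 27.0 in Lamp5 nuclei, and the 4 libraries held 6, 9, 14 and 3 Pvalb nuclei. The MF1 value in Pvalb nuclei rested largely on 1 nucleus, which held 152 of the 263 Schip1 UMIs of the set there. A value of the Pvalb nuclei without it was not computed. The part of these single nuclei, and of the mix of Pvalb and Lamp5 nuclei, in the diet differences was not tested. None of the lists gave a call: 12 folate and one-carbon genes were tested with a median of −0.15, 23 basket and bistratified genes with 0.09 and 16 Ivy and neurogliaform genes with 0.03, against 0.01 over all genes. The diet difference was tested against that of the other GABAergic nuclei in 9785 genes, of which 16 were called (0.164%), Bcas1 and Schip1 among them. Over 14426 regions, none was called between diets in accessibility (0.0%), with 527 at an unadjusted p under 0.05 and none called by DESeq2. Without MF1, MF2, HF1 or HF2 in turn, 1, 19, 23 and 0 regions were called, with the diet left with 1 library assumed to vary like the other. How large a change this region test could find was not simulated.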

How the data were processed

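Nuclei of 4 libraries were profiled with the 10x multiome assay, MF and HF with 2 libraries each. The authors ran Cell Ranger ARC 2.0.1 against mm10, and deposited per library the raw UMI counts per gene and the ATAC counts per peak, which are used as deposited. Peaks were called per library, so 253710 merged regions were formed and the 154764 present in all 4 kept. Between 81.1 and 83.1% of ATAC values were even, so counting intervals are not given for them. Retained nuclei (11518) had between 500 and 7000 genes, less than 2% of their UMIs from mitochondrial genes and between 1000 and 70000 ATAC counts. The libraries held 39223075 to 47460174 UMIs. The members, the gene lists and the tests were chosen with earlier results of these data known.

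Counts were summed per library and class and tested with edgeR 4.0.16 (TMM, filterByExpr, quasi-likelihood) in R 4.3.3, library being a term in class comparisons, with DESeq2 1.42.0 as an alternative. Calls required a Benjamini-Hochberg adjusted p under 0.05, with 2-fold between classes and 1.2-fold between diets in RNA. Genes were named by list or as the 12 largest called folds in each direction against the other GABAergic nuclei, 6 in the other class comparisons and 10 in the diet interaction, whose other called genes were named after their values were seen. A gene of the lists is counted in them but not reported here. Shares were compared by exact permutation. On simulated counts for the comparison with other GABAergic nuclei (8775 genes), 55.7% of 2-fold and 94.2% of 4-fold changes were recovered, and for HF against MF (5826 genes) 16.5 and 61.5%. Recovery meant an adjusted p under 0.05 without the fold minimum, so these shares are upper limits for the calls. Doublets were scored with scrublet in scanpy 1.11.5 and kept. Its automatic call marked 12.4, 18.8, 0.029 and 0% of retained nuclei of MF1, MF2, HF1 and HF2 and was not used. Replicate numbers were not used to pair libraries in the main tests. Deviations of libraries with the same number had a correlation of 0.033 in RNA. With so few nuclei per library this cannot exclude a shared batch.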

Additional observations from a re-analysis of the deposited data

Results flagged for a closer look

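The HF to MF ratio differed between the Lhx6+ Sst-low nuclei and the other GABAergic nuclei in 16 of 9785 genes (interaction term, edgeR's quasi-likelihood test, adjusted p under 0.05), with 444 at an unadjusted p under 0.05. Values are log2 of the ratio in the Lhx6+ Sst-low nuclei minus that in the others. Where a diet had few UMIs the size depends on the prior count, as for Bcas1, 9630013A20Rik, Tns3, Enpp6, Unc13c, Hs3st4, Ryr3, Cpne4 and Tshz2.

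Higher in HF relative to the others were Bcas1 (4.51), 9630013A20Rik (3.35), Tns3 (3.17), Enpp6 (5.58) and Plcl1 (1.45). Bcas1, 9630013A20Rik, Tns3 and Enpp6 are known from oligodendrocytes as they mature. In HF2 a single nucleus held all 16 UMIs of 9630013A20Rik and all 14 of Tns3, and in HF1 a single nucleus held 44 of 45 and 16 of 26. The nucleus with most Bcas1 in HF1 and in HF2 was also the one with most 9630013A20Rik and most Tns3. Enpp6 gave 14 UMIs in HF1, all in 1 nucleus, and 6 in HF2, 5 of them in 1. Plcl1, a phospholipase-like protein of GABA receptor traffic, was at 130, 208, 272 and 329 CPM in MF1, MF2, HF1 and HF2 against 301, 302, 183 and 209 in the others.

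Lower in HF relative to the others were Schip1 (−2.33), Hs3st4 (−4.21), Ryr3 (−3.26), Cpne4 (−3.05), Pex5l (−1.83), Unc13c (−4.31), Vwc2l (−2.18), Fat3 (−1.59), Tshz2 (−3.07), Nkain3 (−2.04) and Olfm3 (−1.91). Pex5l, a partner of HCN channels, was at 212, 322, 103 and 120 CPM against 246, 212, 311 and 376. Hs3st4, a heparan sulfate sulfotransferase, had 36 of 44 UMIs of MF1 and 28 of 37 of MF2 in 1 nucleus each, and Tshz2 71 of 72 in MF1. In MF2 a single nucleus held 24 of 27 Cpne4 UMIs and 13 of 17 of Ryr3, and it was also the one with most Schip1. Single nuclei held 101 of 153 Olfm3 UMIs in MF2 and 57 of 81 of Vwc2l in MF1. In MF1 the nuclei with most Hs3st4, Ryr3, Cpne4, Vwc2l and Pex5l each had 28 glial marker UMIs and a doublet score of 0.0708. The direction of Tshz2 turned without nuclei over the doublet score (1.77) and without nuclei of 20 or more glial marker UMIs (1.30), and neither value was called. Vwc2l, Fat3 and Plcl1 were not called without MF1 (−1.97, −1.40 and 1.11, edgeR adjusted p = 0.19, 0.13 and 0.39), nor Olfm3 without MF2 (−1.24, edgeR adjusted p = 0.31). Without nuclei over the doublet score, Schip1 and Cpne4 were called (Schip1 at −2.16, edgeR adjusted p = 0.013). The MF2 nucleus with most Schip1 and most Cpne4 had a doublet score of 0.0123 and stayed in that setting. Of the 15 genes with a value there, 13 lay in the same direction as with all nuclei, and 9630013A20Rik (−0.71) and Tshz2 turned. The 16 genes were chosen on sums with mostly the same nuclei, so a shared direction is no separate support. Fat3 (−1.57), Nkain3 (−2.17) and Plcl1 (1.56) each had an edgeR adjusted p of 0.21 there, and Bcas1 (7.51) one of 0.93. Vwc2l shrank to −0.80 there and to −0.59 without nuclei of 20 or more glial marker UMIs, where Plcl1 shrank to 0.53, none of them called. Without nuclei of 20 or more glial marker UMIs 7 genes were called, 5 of them among the 16. Bcas1, 9630013A20Rik, Tns3 and Enpp6 had no value in that setting. The part of single nuclei in these differences was not tested.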

How the results depend on the processing

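HF2 held 13 of the nuclei, and each diet had 2 libraries. Numbers of called genes moved as follows. Without a fold minimum 401 genes were called against the other GABAergic nuclei and 382 against Lhx6-zero nuclei. Without a low-count filter there were 308 against the other GABAergic nuclei, 328 against Lhx6+ Sst-high nuclei, 24 between diets and 51 in the diet interaction. Thinned to 3000 UMIs there were 121, 110 and 118 in the 3 class comparisons in the order other, Sst-high and Lhx6-zero, and with at least 2 Lhx6 UMIs 94 against the other GABAergic nuclei. The calls between diets fell to 0 without nuclei over the doublet score, with at least 2 Lhx6 UMIs, with Sst at 0 and without nuclei rich in glial markers, and leaving out 1 library gave 0 to 36 (0 without MF1, 9 without MF2, 17 without HF1 and 36 without HF2). The interaction gave 5 with DESeq2, 2 without nuclei over the doublet score, 7 without nuclei rich in glial markers and 26 to 60 without 1 library, and without nuclei over the doublet score 9630013A20Rik turned to −0.71 and Tshz2 to 1.77, as did Tshz2 to 1.30 without nuclei rich in glial markers. ATAC regions between classes gave 25 at a minimum of 10 counts. ATAC per gene gave 0 within 2 kb of the start and 0 to 1 without 1 library, and ATAC between diets 0 to 23. The HF minus MF share was 0.630 points of GABAergic and 0.00047 of retained nuclei with at least 2 Lhx6 UMIs, and 5.68 and 0.127 after thinning. The causes were not tested. Leaving out 1 library gave 152 to 205, 169 to 219 and 147 to 187 calls in the class comparisons, and 35 of 53 named genes kept their call against the other GABAergic nuclei. Of these 53, 27 kept it with at least 2 Lhx6 UMIs, 44 with at least 6 Gad1 and Gad2 UMIs and 45 with DESeq2.

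Without library as a term the class comparisons gave 176, 176 and 165 genes, and 1 ATAC region. The labels gave libraries of both diets the same replicate numbers and no other tie. With that number as a replicate block 2 genes and 5 ATAC regions were called between diets.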
